A study of Mus musculus with 12 samples.

Results

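Magnesium is the most abundant free divalent cation inside cells, where it holds ATP in its usable form, and its movement across membranes is carried by several gene families. The 7 genes described here are Slc41a1, Slc41a2 and Slc41a3 of the SLC41 carriers, the channel gene Trpm7, and Cnnm2, Cnnm3 and Cnnm4 of the CNNM (cyclin M) family. They were taken by name from the 55453 gene symbols counted in mouse heart RNA sequencing libraries, and all 7 passed the filter on low counts that left 14757 genes. The set was selected on measured values: it was built around Slc41a3, chosen by its CPM difference between doxorubicin and vehicle in hearts labelled KO, and the other 6 are genes of the same kind. For that gene, values in any comparison that holds KO hearts are therefore a description with no test.

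The libraries were 12 hearts of C57BL/6J mice, 3 in each of 4 groups, with both the genotype and the treatment taken from the labels. Mice labelled PDE10A knockout (KO) with doxorubicin (DOX) had numbers 18, 19 and 20, and KO mice with vehicle had numbers veh_3393, veh_3394 and veh_3395. Wild-type (WT) mice with DOX had numbers 21, 22 and 24, and WT mice with vehicle had numbers 1, 2 and 3. DOX is an anthracycline cancer drug that injures the heart, injected once at 15 mg/kg for a course of 7 days, per the labels' protocols. PDE10A is a phosphodiesterase that breaks down cAMP and cGMP. The labels do not say in which cells the gene was deleted or how old the mice were. The protocols also describe TP-10, a PDE10A inhibitor, but none of these libraries carries that label. Values are CPM, read counts relative to the scaled library size, and differences are log2 values from a model fitted to all genes. A gene is said to be called, to rise or to fall where its p-value, adjusted over all 14757 genes, is below 0.05.

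Library totals lay between 23846398 and 32921876 counts. WT vehicle mouse 2 stood apart on the first principal component and had the lowest mitochondrial share, 19.5% against 24.4% to 33.6% in the others. KO DOX mouse 18 and KO vehicle mouse veh_3394 had summed atrial marker levels of 1706 and 2270 CPM, against 64.7 to 262 CPM elsewhere. The heart label fitted the marker lists: 8 cardiomyocyte markers summed to between 51120 and 76110 CPM, and 6 liver and kidney tubule markers to between 0.556 and 3.17 CPM. Pde10a itself went against its label, with 8.62 ± 0.426 CPM in KO DOX and 10.1 ± 1.54 CPM in KO vehicle hearts, against 2.19 ± 0.465 CPM in WT DOX and 2.08 ± 1.21 CPM in WT vehicle hearts (SD, n = 3 each). A whole-gene count does not show which exons were transcribed. KO therefore stands below for the libraries labelled KO, and every direction between genotypes rests on those labels.

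SLC41 proteins are relatives of bacterial magnesium channels. In human cells SLC41A1 sits in the plasma membrane and has been described as a sodium-dependent magnesium exporter, and SLC41A3 has been placed in mitochondria, where it lets magnesium out. TRPM7 is a plasma membrane channel for magnesium, calcium and zinc joined to a protein kinase. CNNM proteins are membrane proteins bound by phosphatases of the PRL family, whose genes are Ptp4a1, Ptp4a2 and Ptp4a3. CNNM2 mutations cause low blood magnesium in people through the kidney, and mouse CNNM4 works at the basolateral side of gut epithelium.

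The promoter windows of the 3 genes that the results turn on, Slc41a3, Slc41a1 and Trpm7, are shown as background. Over 12 libraries Slc41a3 had a Pearson r of 0.94 with Clock and 0.90 with Arntl. With group means removed, r was 0.54 and 0.47. For the clock genes Per3, Dbp and Nr1d1, r over the 12 libraries was -0.81, -0.67 and 0.06. For Trpm7 it was 0.01. The part of the motif in any of these levels was not tested. CLOCK and BMAL1, the product of Arntl, bind as a pair to the E-box CACGTG, which other helix-loop-helix factors bind too. Each window holds 250 bases before and 50 bases after the RefSeq gene start on GRCm38.p6, read 5′ to 3′ on the gene's strand, with any CACGTG in capitals. They are chr6:90618996-90619295 on the plus strand for Slc41a3, chr1:131827762-131828061 on the plus strand for Slc41a1 and chr2:126876212-126876511 on the minus strand for Trpm7.
Slc41a3: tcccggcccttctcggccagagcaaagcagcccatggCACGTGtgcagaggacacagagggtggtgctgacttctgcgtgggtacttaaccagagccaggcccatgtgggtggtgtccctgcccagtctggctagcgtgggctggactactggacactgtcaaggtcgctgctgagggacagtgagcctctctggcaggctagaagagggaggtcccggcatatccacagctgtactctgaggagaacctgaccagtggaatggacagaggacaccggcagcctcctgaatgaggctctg
Slc41a1: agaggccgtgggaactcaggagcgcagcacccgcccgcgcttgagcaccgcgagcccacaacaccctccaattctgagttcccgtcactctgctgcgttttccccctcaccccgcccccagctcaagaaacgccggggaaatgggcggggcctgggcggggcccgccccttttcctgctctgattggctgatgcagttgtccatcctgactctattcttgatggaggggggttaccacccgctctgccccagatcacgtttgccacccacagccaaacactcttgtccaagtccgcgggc
Trpm7: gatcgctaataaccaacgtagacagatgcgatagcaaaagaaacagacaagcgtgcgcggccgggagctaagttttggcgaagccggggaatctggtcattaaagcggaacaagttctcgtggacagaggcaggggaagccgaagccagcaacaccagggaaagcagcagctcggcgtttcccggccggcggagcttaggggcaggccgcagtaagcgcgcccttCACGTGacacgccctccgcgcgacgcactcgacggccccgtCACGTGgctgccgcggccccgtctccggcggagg
The motif reads the same on both strands. It was found once in the Slc41a3 window, at base 38, and at bases 226 and 267 of the Trpm7 window, and in no window of the other 5 members. Of all 32851 windows of this length, 7.15% held it at least once and 0.594% held it 2 or more times. These are matches of letters, not sites shown to be bound. The Slc41a3 window lies inside the span that GENCODE M21 gives the gene (chromosome 6, 90604725 to 90646412), away from either end. The Slc41a1 window also lies inside that gene's span. Which start these hearts used was not tested.

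In GENCODE M21, also on GRCm38, Slc41a1 lies on chromosome 1 from 131827493 to 131848865 and Trpm7 on chromosome 2 from 126791565 to 126876230. Cnnm4 (36471620 to 36508764) and Cnnm3 (36511867 to 36528237) are neighbours on chromosome 1. Cnnm2 lies on chromosome 19 from 46761596 to 46880192 and Slc41a2 on chromosome 10 from 83230848 to 83337882. Overlap with other annotated exons was small. An antisense gene, Gm38033, covers 4.19% of Cnnm3 exon and the miRNA gene Gm47280 covers 2.92% of Cnnm4 exon, so those counts are uncertain to that extent.

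Levels were compared between the 7 genes only per kilobase of annotated exon. Slc41a3 had 17.0 ± 6.52 CPM per kb and Slc41a1 had 13.8 ± 2.29 CPM per kb (SD, n = 12 for each gene). Their ranges overlapped, at 6.52 to 28.2 CPM per kb for Slc41a3 and 9.10 to 15.9 CPM per kb for Slc41a1. Trpm7 followed with 5.23 ± 0.957 CPM per kb. Cnnm3 had 2.38 ± 0.245 CPM per kb, Cnnm4 1.05 ± 0.166 CPM per kb and Cnnm2 0.972 ± 0.206 CPM per kb, and the ranges of the last 2 overlapped. Trpm7 overlapped Cnnm3 only through WT vehicle mouse 2, at 2.57 CPM per kb. Slc41a2 was lowest, with 0.347 ± 0.116 CPM per kb and between 24 and 76 counts in a library.

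**Figure D1:**
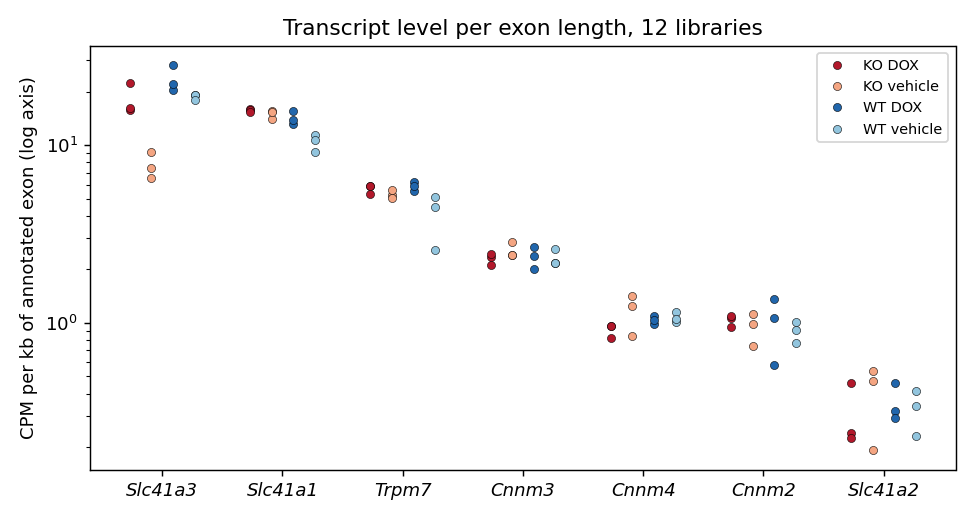
Level of each magnesium transporter gene in CPM per kb of annotated exon (log axis), 1 point per heart, genes ordered by their mean over 12 libraries. The 3 KO vehicle points of Slc41a3 lie below its other points and below the KO vehicle points of Slc41a1.

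The order of the top pair depended on the group. In KO vehicle hearts Slc41a3 averaged 7.68 ± 1.30 CPM per kb and Slc41a1 15.0 ± 0.824 CPM per kb. In WT vehicle hearts Slc41a3 averaged 18.8 ± 0.638 CPM per kb and Slc41a1 10.4 ± 1.16 CPM per kb (SD, n = 3 for each). Slc41a3 made up 40.0% ± 4.85 of the summed SLC41 CPM in KO DOX hearts, 22.7% ± 2.60 in KO vehicle hearts, 48.7% ± 4.80 in WT DOX hearts and 51.0% ± 2.85 in WT vehicle hearts (SD, n = 3 each). This share is on CPM without division by length.

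Slc41a3, the mitochondrial carrier gene, was low in the KO vehicle group, while its values in KO DOX hearts overlapped those in WT DOX hearts. It had 46.1, 65.2 and 46.9 CPM in KO DOX hearts, against 26.5, 21.6 and 18.99 CPM in KO vehicle hearts. WT DOX hearts had 59.2, 82.0 and 64.1 CPM, against 55.8, 55.7 and 52.5 CPM in WT vehicle hearts. Each KO DOX heart thus lay above each KO vehicle heart, and each WT DOX heart above each WT vehicle heart. The KO vehicle group was the lowest, and no heart of it reached the level of any heart of another group. KO DOX and WT DOX hearts overlapped through KO DOX mouse 19 at 65.2 CPM.

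As a description, the log2 difference of Slc41a3 between DOX and vehicle was 1.24 (SE 0.17) in KO hearts, and that between KO and WT under vehicle was -1.29 (SE 0.17). Both use the 3 KO vehicle libraries, so they are not separate observations. Between KO and WT under DOX it was -0.38 (SE 0.16), and the DOX difference in KO less that in WT was 0.92 (SE 0.23). Leaving out any 1 library kept the KO DOX difference between 1.06 and 1.38, and the other settings kept it between 1.20 and 1.31. Because the gene was chosen by this difference in these same hearts, nothing is read from that steadiness. The KO vehicle mice have numbers from another range than those of the other groups, so an effect of DOX and a feature of those 3 mice cannot be told apart.

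The comparison of Slc41a3 between groups that hold no KO heart was DOX against vehicle in WT. Its SE, interval and p-value still drew on the KO hearts, because the spread was estimated from all 12 libraries. Fitted from the WT libraries alone, Slc41a3 was not called either. Its mean was 68.4 ± 12.0 CPM in WT DOX hearts and 54.7 ± 1.86 CPM in WT vehicle hearts (SD, n = 3 each). The difference was log2 0.32 (SE 0.16), higher in 3 of 3 DOX hearts than in any vehicle heart, and it missed the threshold in edgeR's quasi-likelihood test (adjusted p = 0.169). Its 95% interval ran from -0.03 to 0.68 on the log2 scale. It passed with limma-voom with quality weights (log2 0.44, adjusted p = 0.0367), and over all alternatives the adjusted p ran from 0.0367 to 0.509.

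**Figure D2:**
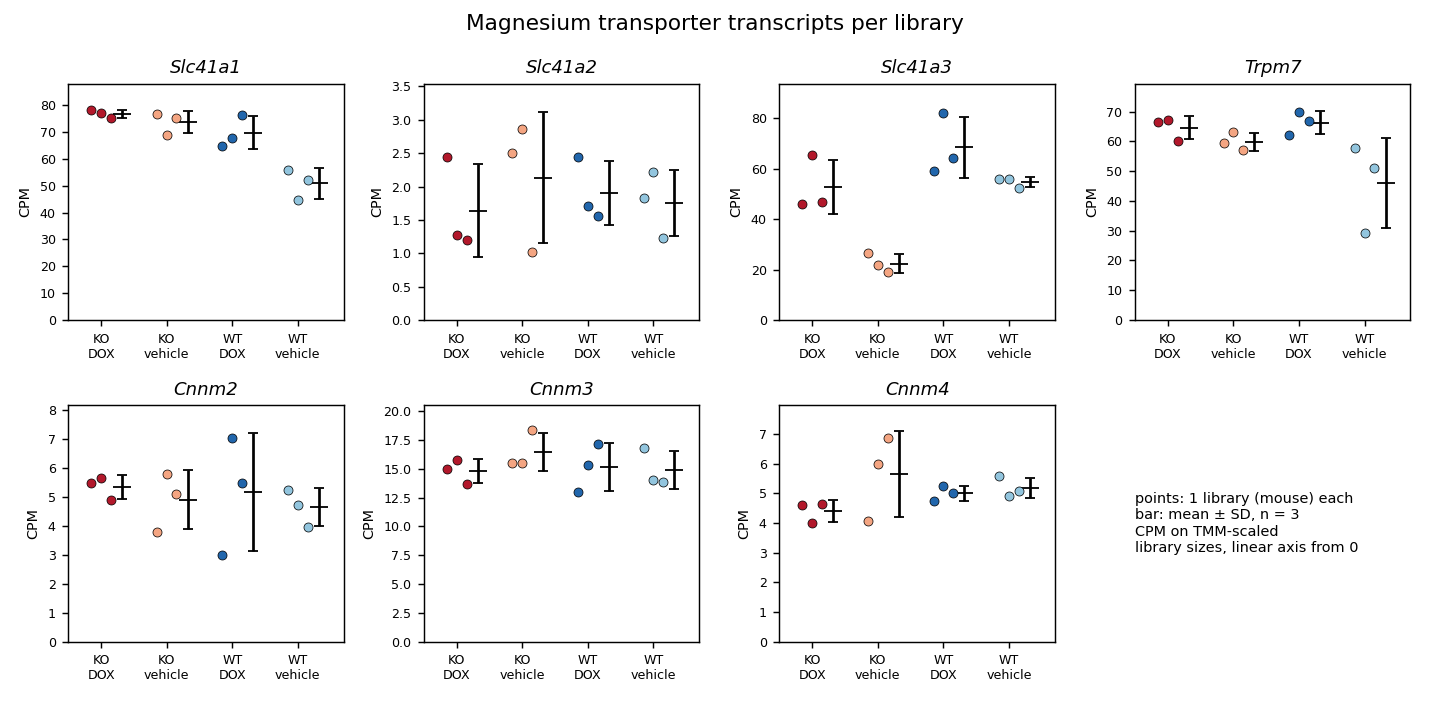
CPM of each magnesium transporter gene by group, with 1 point per heart and a bar for the mean and SD of 3 hearts, on linear axes that start at 0. Slc41a3 is lowest in the 3 KO vehicle hearts, at 18.99 to 26.5 CPM, and Slc41a1 is lowest in the 3 WT vehicle hearts, at 44.7 to 55.8 CPM.

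Slc41a1, the plasma membrane exchanger gene, had another pattern, with the WT vehicle hearts low. It had 78.3, 77.0 and 75.3 CPM in KO DOX hearts and 76.5, 69.0 and 75.3 CPM in KO vehicle hearts. WT DOX hearts had 64.8, 67.9 and 76.5 CPM, against 55.8, 44.7 and 52.2 CPM in WT vehicle hearts. Every WT vehicle heart lay below every heart of the 3 other groups, which overlapped one another. The group means were 76.8 ± 1.51 CPM in KO DOX, 73.6 ± 4.05 CPM in KO vehicle, 69.7 ± 6.06 CPM in WT DOX and 50.9 ± 5.68 CPM in WT vehicle hearts (SD, n = 3 each).

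In WT hearts Slc41a1 rose with DOX by log2 0.46 (SE 0.10, adjusted p = 0.0174, edgeR's quasi-likelihood test), and it was the only 1 of the 7 members called. Of all 14757 genes, 18.6% were called in that comparison, 1386 higher and 1357 lower, or 1845 higher and 941 lower without TMM scaling. The members' median difference was 0.15 on the log2 scale and that of all genes was 0.00. The Slc41a1 call was lost without WT DOX mouse 22 (log2 0.48, adjusted p = 0.0601), WT DOX mouse 24 (0.38, adjusted p = 0.0706) or WT vehicle mouse 2 (0.37, adjusted p = 0.0514), and when WT libraries alone were fitted (0.45, adjusted p = 0.102).

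Under vehicle, Slc41a1 was higher in KO than in WT hearts by log2 0.53 (SE 0.10, adjusted p = 0.0238, edgeR's quasi-likelihood test), higher in 3 of 3 KO hearts than in any WT heart. The KO vehicle mice have numbers from another range than the WT vehicle mice. Genotype and a feature of those 3 mice therefore cannot be told apart under vehicle, for this gene or for Clock, Arntl and Per3 below. With Slc41a3, 2 of 7 members were called under vehicle, against 2.88% of all genes (264 higher and 161 lower, or 304 higher and 120 lower without TMM scaling), and nothing is read from that share because Slc41a3 led to the choice of the set. The comparison uses the same 3 WT vehicle hearts as DOX against vehicle in WT, so both Slc41a1 calls rest on those low values. This second call was lost without any 1 of the KO vehicle mice (adjusted p of 0.0927, 0.0624 and 0.103 without mice veh_3393, veh_3394 and veh_3395) and without WT vehicle mouse 2 (0.0574) or 3 (0.0932). It was also lost without KO DOX mouse 18 and KO vehicle mouse veh_3394 together (0.0914) and in a fit of the vehicle groups alone (0.0573), with the log2 value between 0.45 and 0.60 throughout.

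Slc41a1 differed little between DOX and vehicle in KO hearts, with log2 0.06 (SE 0.10, 95% interval -0.16 to 0.28, adjusted p = 0.997). Slc41a3 was the only member among the 0.0136% of genes, 2 in number, called in KO hearts, and since that value chose it nothing is read from it. That count fell to 0 of 7 members without any 1 KO library other than KO DOX mouse 18. Under DOX, Slc41a1 was 0.14 higher in KO than in WT on the log2 scale (SE 0.10, adjusted p = 0.540). The interaction, the DOX difference in KO minus the DOX difference in WT, was -0.39 (SE 0.14, adjusted p = 0.242), a value called only by limma-voom with quality weights (adjusted p = 0.0322).

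Summed levels of endothelial markers were highest in WT vehicle hearts, where Slc41a1 was lowest. The 8 markers summed to between 1016 and 1225 CPM in KO DOX hearts, 1020 and 1119 CPM in KO vehicle hearts, 937 and 1147 CPM in WT DOX hearts, and 1649 and 1712 CPM in WT vehicle hearts. All 8 were above 0 in every library. Fabp4, which fat cells express too, made up much of the sum, with 387 ± 55.8 CPM in WT DOX and 763 ± 105 CPM in WT vehicle hearts (SD, n = 3 each). Without it, in a sum chosen after seeing the data, the other 7 came to between 696 and 785 CPM in KO DOX, 611 and 699 CPM in KO vehicle, 613 and 740 CPM in WT DOX, and 837 and 993 CPM in WT vehicle hearts. With DOX in WT 4 of the 8 fell and 0 rose, against 18.6% of all genes called. Under vehicle 3 were lower and 0 higher in KO than in WT, against 2.88%. Vwf differed with DOX in WT by log2 0.27 (SE 0.42, adjusted p = 0.662, edgeR's quasi-likelihood test). Pecam1, Cdh5 and Tek were not called by that test in either comparison. DESeq2 called Pecam1 and Tek, and limma-voom all 3, for KO under vehicle, and limma-voom called Cdh5 and Tek for DOX in WT. Of the 8 markers DESeq2 called 4 for DOX in WT and 5 for KO under vehicle, against 24.4% and 13.5% of all genes. Limma-voom called 6 and 7, against 37.8% and 35.1%. Fewer cells of a type and less RNA per cell cannot be told apart in whole heart, and the part of the cell makeup in the Slc41a1 values was not tested. The 8 cardiomyocyte markers summed to 51120 to 63780 CPM in WT DOX and 65440 to 76110 CPM in WT vehicle hearts. That sum was higher in each WT vehicle heart than in any WT DOX heart, but single markers went both ways. Mybpc3, Ryr2 and Pln differed with DOX by log2 0.41, 0.39 and 0.14, and the rest of the list had negative differences. EdgeR's quasi-likelihood test called 1 of the 8 lower and 0 higher, against 18.6% of all genes. DESeq2 called 4 and limma-voom 5, against 24.4% and 37.8%.

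Trpm7, the channel-kinase gene, had its lowest values in WT vehicle hearts too. It had 66.6, 67.0 and 60.2 CPM in KO DOX hearts and 59.3, 63.1 and 57.2 CPM in KO vehicle hearts. WT DOX hearts had 62.2, 69.9 and 66.8 CPM, against 57.9, 29.1 and 51.0 CPM in WT vehicle hearts. WT vehicle mouse 2, the library that stands apart, had by far the lowest value, and mouse 1 overlapped the KO vehicle hearts. All 3 WT DOX hearts lay above the 3 WT vehicle hearts.

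The DOX difference of Trpm7 in WT, log2 0.53 (SE 0.19), was as large as that of Slc41a1 but missed the threshold (adjusted p = 0.0649, edgeR's quasi-likelihood test). It was 0.28 without WT vehicle mouse 2, and without WT vehicle mouse 1 it was 0.73 and passed (adjusted p = 0.0151). It also passed with DESeq2 (log2 0.52, adjusted p = 0.0373), limma-voom with quality weights (0.42, adjusted p = 0.0157), no TMM scaling (0.59, adjusted p = 0.0352) and no filter (0.53, adjusted p = 0.00162). Under vehicle Trpm7 differed by log2 0.38 between KO and WT (SE 0.19, adjusted p = 0.214), which passed without WT vehicle mouse 1 (0.58, adjusted p = 0.0473). In KO hearts the DOX difference was 0.11 (SE 0.19, adjusted p = 0.997).

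Slc41a1 and Trpm7 were the most alike of the 21 member pairs, with a Pearson r of 0.81 over 12 libraries on log2 CPM and 0.72 after the group means were removed. WT vehicle mouse 2 is the lowest library for both genes. Slc41a1 and Slc41a3 had a Pearson r of -0.27 and Slc41a3 and Trpm7 of 0.01. Over all tested genes, the 1 most like Slc41a1 was Dcaf7 (r = 0.97) and the 1 most like Trpm7 was Nos1ap (r = 0.99), each over the same 12 libraries. For the others it was Zfp566 for Slc41a2 (r = 0.88), Zcchc2 for Cnnm2 (0.87), Nup210 for Cnnm3 (0.89) and Ercc8 for Cnnm4 (0.80). These are descriptions across libraries that share preparation and groups.

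The 3 CNNM genes and Slc41a2 gave 0 calls in any of the 5 comparisons with edgeR, DESeq2 or limma-voom. They also gave 0 unadjusted p-values below 0.05 in edgeR's quasi-likelihood test. Depending on the comparison, edgeR called 0.0136% to 18.6% of all genes, DESeq2 0.448% to 24.4% and limma-voom 0.596% to 37.8%. At an unadjusted p below 0.05 the share was 5.35% to 36.1%, so 0 of so few genes says little about them. Cnnm3, which in other systems binds PRL phosphatases, had 15.0, 15.7 and 13.6 CPM in KO DOX hearts and 15.5, 15.5 and 18.4 CPM in KO vehicle hearts. WT DOX hearts had 12.9, 15.3 and 17.1 CPM, against 16.8, 14.0 and 13.9 CPM in WT vehicle hearts. It was the steadiest member, with a 1.42-fold span between its lowest and highest library, and all groups overlapped. For DOX in WT its 95% interval ran from -0.26 to 0.31 on the log2 scale, around a difference of 0.03 (adjusted p = 0.909).

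Cnnm4, the gut epithelial gene, had 4.61, 3.99 and 4.62 CPM in KO DOX hearts and 4.07, 6.00 and 6.87 CPM in KO vehicle hearts. It had 4.75, 5.24 and 5.01 CPM in WT DOX hearts, against 5.57, 4.91 and 5.08 CPM in WT vehicle hearts. Every KO DOX heart lay below every WT DOX heart, by log2 -0.18 (SE 0.18, adjusted p = 0.666), a difference inside its interval of -0.57 to 0.20. With DOX in KO it was -0.36 (SE 0.18, adjusted p = 0.988), and those groups overlapped through KO vehicle mouse veh_3393.

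Cnnm2, the gene of the kidney disorder, had 5.48, 5.67 and 4.89 CPM in KO DOX hearts and 3.80, 5.81 and 5.12 CPM in KO vehicle hearts. It had 2.98, 7.03 and 5.50 CPM in WT DOX hearts, against 5.25, 4.73 and 3.97 CPM in WT vehicle hearts. The WT DOX hearts spanned both the lowest and the highest of the 12 values. Its differences lay between -0.03 and 0.15 on the log2 scale, and the sign of each changed in at least 1 fit that left out a library. Slc41a2 lay between 1.02 and 2.87 CPM with all groups overlapping. The 95% interval of its DOX difference ran from -0.74 to 0.96 in WT and from -1.24 to 0.47 in KO, so changes within those bounds were not detectable. Its coefficient of variation between the 3 hearts of a group was 25.0% to 45.8%.

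**Figure D3:**
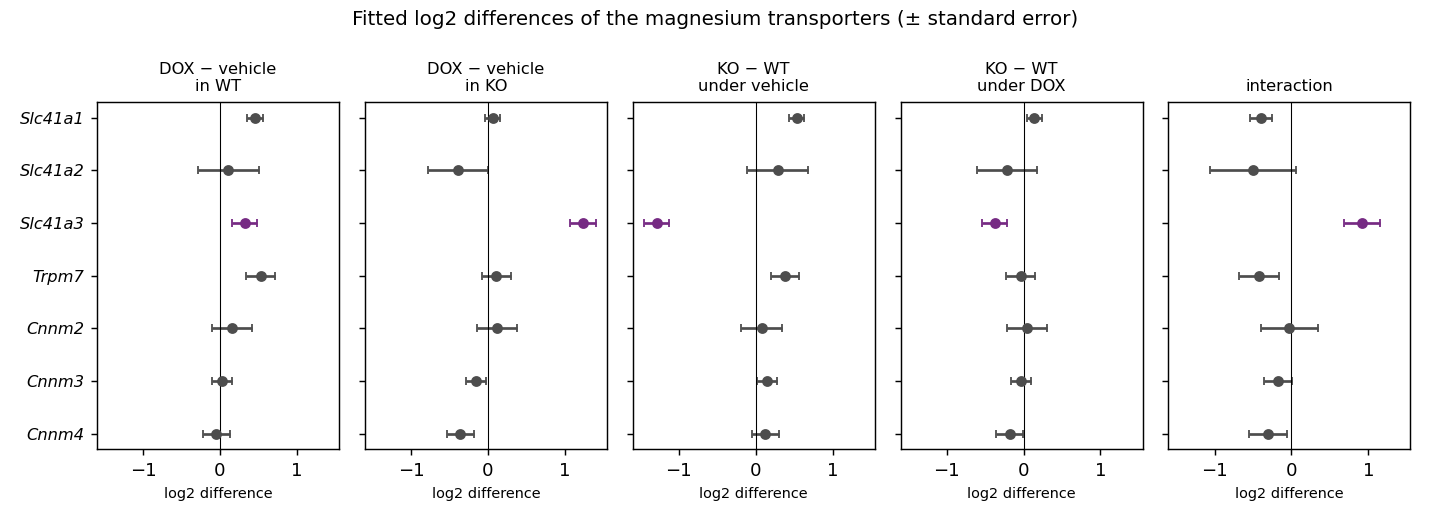
Fitted log2 difference of each magnesium transporter gene with its standard error, in 5 panels for DOX less vehicle in WT, DOX less vehicle in KO, KO less WT under vehicle, KO less WT under DOX, and the DOX difference in KO less that in WT. Slc41a3, in purple, stands at 1.24 for DOX in KO and at -1.29 for KO under vehicle, and the other 6 genes lie between -0.50 and 0.53.

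Slc41a3 is left out of the counts under DOX and for the interaction, since both hold KO hearts and its values there are a description. Of the 6 other members, edgeR's quasi-likelihood test, DESeq2 and limma-voom each called 0 between KO and WT with DOX given, and 0 had an unadjusted p below 0.05, against 0.42% of all genes called by edgeR and 15.5% at an unadjusted p below 0.05. For the interaction 0 of the 6 were called by edgeR's quasi-likelihood test or DESeq2 and 1, Slc41a1, by limma-voom, against 0.21%, 2.58% and 13.9% of all genes. Slc41a1 was also the 1 member of the 6 at an unadjusted p below 0.05 for the interaction, against 16% of all genes. The median of all 7 members was -0.04 under DOX and -0.305 for the interaction on the log2 scale, against 0.015 and -0.002 over all genes.

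Of 14 other magnesium transporters and channels, 10 could be tested, and edgeR's quasi-likelihood test called 0 in any of the 5 comparisons. At an unadjusted p below 0.05 there were 6 for DOX in WT, against 36.1% of all genes, and 3 for KO under vehicle, against 26% of all genes. There were 0 for DOX in KO, 5 for KO under DOX and 2 for the interaction, against 5.35%, 15.5% and 16% of all genes. DESeq2 called 3 for DOX in WT, 2 for KO under vehicle and 1 for KO under DOX, against 24.4%, 13.5% and 3.34% of all genes, and 0 in the other 2 comparisons. Limma-voom called 5 for DOX in WT, 5 for KO under vehicle, 1 for KO under DOX and 1 for the interaction, against 37.8%, 35.1%, 6.71% and 13.9% of all genes, and 0 for DOX in KO. The list's median difference was -0.04 for DOX in WT and 0.19 for KO under vehicle on the log2 scale. The 4 genes not tested were near 0, and among them Trpm6, the gene of the kidney and gut magnesium channel, lay between 0.0576 and 0.591 CPM over the 12 libraries.

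Of 10 genes of renal magnesium handling 5 could be tested, and edgeR's quasi-likelihood test called 0 in any comparison. At an unadjusted p below 0.05 there were 2 each for DOX in WT, KO under vehicle and KO under DOX. There was 1 for the interaction and 0 for DOX in KO. The shares of all genes were 36.1%, 26%, 15.5%, 16% and 5.35%, in that order. DESeq2 called 1 for DOX in WT and 1 for KO under vehicle, against 24.4% and 13.5% of all genes. Limma-voom called 1 for DOX in WT, 3 for KO under vehicle and 1 for KO under DOX. Its shares of all genes were 37.8%, 35.1% and 6.71%. The nearest to the threshold was Egf, the gene of epidermal growth factor, which differed by log2 0.80 between KO and WT under vehicle (SE 0.20, adjusted p = 0.0505, edgeR's quasi-likelihood test), with all 3 KO hearts above the WT hearts. DESeq2 and limma-voom both called Egf in that comparison.

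Of the 4 regulators of CNNM proteins and TRPM7, edgeR's quasi-likelihood test called 1, for KO against WT under DOX, where it called 0.42% of all genes. Ptp4a3, which encodes a PRL phosphatase that binds CNNM proteins, had 224, 256 and 233 CPM in KO DOX hearts, against 334, 470 and 354 CPM in WT DOX hearts. All 3 KO hearts lay below the WT hearts, by log2 -0.70 (SE 0.13, adjusted p = 0.0489). The call was lost when any library but 1 of the 6 compared was left out, with adjusted p up to 0.214, and held only without WT DOX mouse 21. Under vehicle Ptp4a3 differed by -0.32 (SE 0.13, adjusted p = 0.157). Ptp4a1, the gene of another PRL phosphatase, had between 18.9 and 23.7 CPM in KO DOX hearts, against 27.4, 66.1 and 45.5 CPM in WT DOX hearts. All 3 KO hearts were below the WT hearts, by log2 -1.13 (SE 0.24), and the difference missed the threshold (adjusted p = 0.0657, edgeR's quasi-likelihood test). DESeq2 and limma-voom called both Ptp4a3 and Ptp4a1 under DOX, against 3.34% and 6.71% of all genes. Limma-voom also called Ptp4a1 for DOX in WT and for the interaction, against 37.8% and 13.9% of all genes. It called Ptp4a3 for KO under vehicle, against 35.1%.

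Of 4 genes of mitochondrial ATP-magnesium carriers 3 were tested, and edgeR's quasi-likelihood test called 1, Slc25a25, which rose with DOX in WT, where 18.6% of all genes were called. It had 14.2, 28.7 and 12.0 CPM in WT DOX hearts, against 7.48, 10.5 and 10.3 CPM in WT vehicle hearts, a difference of log2 0.95 (SE 0.28, adjusted p = 0.0380). WT DOX mouse 22 was far above the other hearts. Without it the difference was 0.47 (adjusted p = 0.149), and the call held only without WT DOX mouse 21 among fits that left out 1 library. In KO hearts the DOX difference was -0.51 (SE 0.29, adjusted p = 0.997). DESeq2 and limma-voom called Slc25a25 for KO against WT under DOX and for the interaction too. DESeq2 called 3.34% and 2.58% of all genes there, and limma-voom 6.71% and 13.9%.

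The genes most like Slc41a3 across the 12 libraries were led by a core clock gene. Of 13191 genes ranked by Pearson r on log2 CPM, Clock was highest (r = 0.94), followed by Scara5, a ferritin receptor gene (0.94), Arhgef10l (0.93), Thra, the thyroid hormone receptor alpha gene (0.91), and Tmem171 (0.91). The lowest were Dph2 (-0.94), Steap3, a metalloreductase gene (-0.92), Mlst8, which encodes a subunit of mTOR complexes (-0.91), Foxo6os (-0.90) and Serpini1 (-0.90). Within groups, after the group means were removed, r was 0.54 for Clock, 0.92 for Scara5, -0.002 for Thra and -0.71 for Dph2. The 3 KO vehicle hearts lie apart from the rest, and the pooled values rest in part on them.

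Clock had 33.4, 40.2 and 33.1 CPM in KO DOX hearts, against 23.3, 25.5 and 24.2 CPM in KO vehicle hearts. WT DOX hearts had 41.5, 47.6 and 46.4 CPM, against 40.9, 33.8 and 36.0 CPM in WT vehicle hearts. As for Slc41a3, the KO vehicle hearts were the lowest and overlapped no other group. Clock was lower in KO than in WT under vehicle by log2 -0.60 (SE 0.11, adjusted p = 0.0192), a call lost without any 1 KO vehicle mouse or WT vehicle mouse 3 (adjusted p up to 0.0898). With DOX in KO it differed by 0.55 (SE 0.11, adjusted p = 0.215), and 3 of the 15 alternatives called it, with adjusted p from 0.00517 to 0.886.

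Arntl, the partner of Clock, ranked 7 by likeness to Slc41a3 (r = 0.90, or 0.47 within groups). It had 4.02, 8.27 and 3.12 CPM in KO DOX hearts, against 0.950, 1.06 and 1.92 CPM in KO vehicle hearts. WT DOX hearts had 8.09, 15.7 and 9.70 CPM, against 13.1, 13.0 and 8.57 CPM in WT vehicle hearts. The difference between KO and WT under vehicle was log2 -3.15 (SE 0.41, adjusted p = 0.00339) and passed in all 15 alternatives. DOX against vehicle in KO gave 1.98 (SE 0.42, adjusted p = 0.246), with KO DOX hearts above all KO vehicle hearts, and passed in 2 of 15 alternatives.

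**Figure D4:**
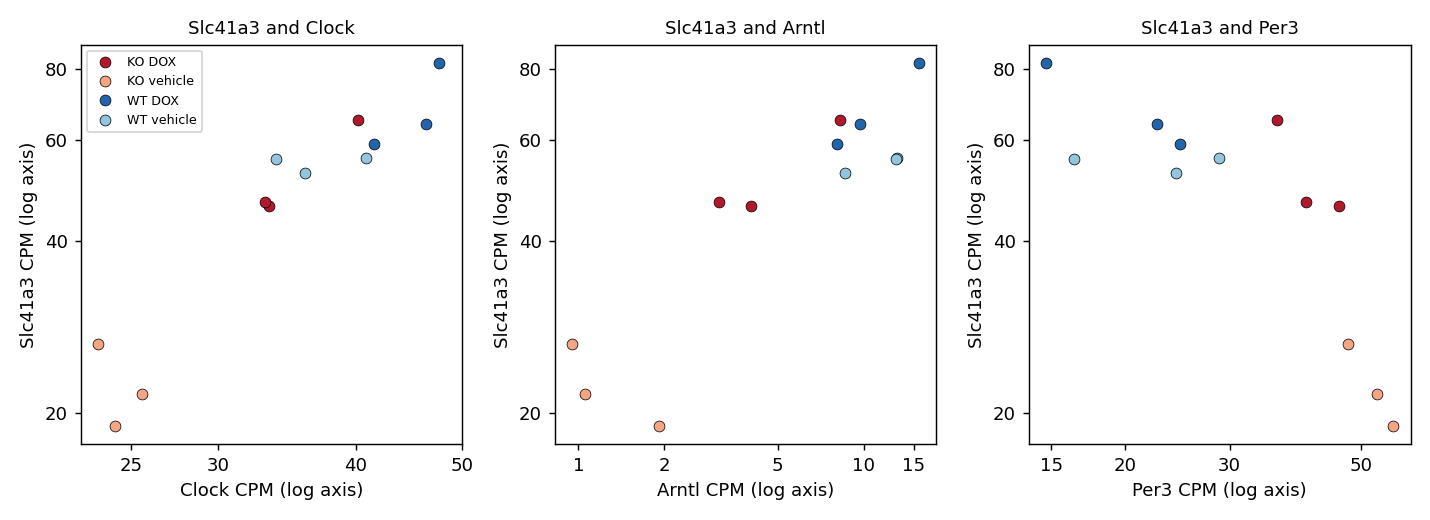
Slc41a3 CPM against CPM of Clock, Arntl and Per3, log axes, 1 point per heart in 12 hearts of 4 groups. The 3 KO vehicle hearts hold the lowest Slc41a3, Clock and Arntl values and the highest Per3 values, at 47.4 to 56.6 CPM.

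Other clock genes took other courses. Per3, a repressor gene of the clock, had r = -0.81 with Slc41a3 and was higher in KO than in WT under vehicle by log2 1.18 (SE 0.21, adjusted p = 0.0193). Dbp, a clock output gene, had r = -0.67, and Nr1d1, which encodes the repressor REV-ERB alpha, had r = 0.06. Of 19 clock genes edgeR's quasi-likelihood test called 4 higher and 2 lower with DOX in WT, against 18.6% of all genes, and 0 with DOX in KO, against 0.0136%. It called 5 higher and 2 lower in KO than in WT under vehicle, against 2.88% of all genes, 3 higher and 1 lower under DOX, against 0.42%, and 0 for the interaction, against 0.21%. With DOX in KO 5 had an unadjusted p below 0.05, and for the interaction 9 had, against 5.35% and 16% of all genes. DESeq2 called 8 for DOX in WT, 2 for DOX in KO, 12 for KO under vehicle, 10 for KO under DOX and 5 for the interaction, and limma-voom called 13, 1, 15, 13 and 8. Of all genes, DESeq2 called 24.4%, 0.448%, 13.5%, 3.34% and 2.58% in the same order, and limma-voom 37.8%, 0.596%, 35.1%, 6.71% and 13.9%. The list median was 0.52 on the log2 scale for KO under vehicle, against 0.02 over all genes. The labels do not give the hour at which hearts were taken, and the part of clock genes in the Slc41a3 values was not tested.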

How the data were processed

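RNA of 12 mouse hearts was sequenced from stranded mRNA libraries, and the authors deposited whole-number read counts for each gene symbol. The submitters' processing notes name fastp 0.20.0, STAR 2.7.0f, featureCounts and Subread 1.6.4. Build, annotation, strand setting and the treatment of multimapping reads: not given in the sources used here. Locations and exon lengths were matched by symbol to GENCODE M21, which held 98.3% of the symbols, and promoter windows to RefSeq for all 7 members.

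The deposited counts went unchanged into edgeR 4.0.16 in R 4.3.3. Genes were kept by filterByExpr and scaled by TMM, and a model with a mean for each group took in all 12 libraries. Each of 5 comparisons was tested by quasi-likelihood, with p-values adjusted by Benjamini and Hochberg's method across 14757 genes and a threshold of 0.05. Standard errors were derived from log2 differences and F values, and 95% intervals from the fit's degrees of freedom. CPM uses TMM-scaled library sizes, and log2 CPM a prior count of 2. The biological coefficient of variation was 17.5%. Mice are separate animals, so p-values measure the spread between them. No pair of libraries agreed within sampling noise (chi-square of at least 8.32 per gene). The test was tried on simulated data. Alternatives used DESeq2 1.42.0, limma-voom in limma 3.58.1, other scaling and filters, the compared groups alone, the title suffix 1 as covariate, and fits without each library. A fit without 2 libraries high in atrial transcripts was chosen after seeing the data.

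The members and gene lists were chosen with earlier results of these data known. Genes named outside the 7 are those of the magnesium and regulator lists that were called, the 5 most and 5 least like Slc41a3 by Pearson r, clone-type names aside, the 1 most like a member, and Arntl, Nr1d1, Dbp, Per3 and Pde10a. Trpm6, Ptp4a1, Egf and the single endothelial and cardiomyocyte markers were named after their values were seen. The other marker lists were of fibroblasts, smooth muscle cells and pericytes, and macrophages, with 8 genes each, and of mesothelium and adipocytes, with 6 each. They gave 0 to 1 called genes in any comparison by edgeR's quasi-likelihood test, which called 0.0136% to 18.6% of all genes. DESeq2 called at most 2, for smooth muscle cells and pericytes in KO under vehicle, against 13.5% of all genes. Limma-voom called at most 4, for the same list, with DOX in WT and for KO under vehicle. It called 37.8% and 35.1% of all genes there, so these counts do not show that the cell types were steady.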

Additional observations from a re-analysis of the deposited data

How the results depend on the processing

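Of the members' log2 values, 220 without 1 library and 283 under other settings counted as unchanged. A value counted so if it kept its direction and its side of the threshold. For Slc41a3 in comparisons that hold KO hearts, the threshold was not looked at. There the value had to keep its direction and move by less than 0.262, its SD within KO groups. Of the rest, 22 and 9 changed sign, 8 and 3 lost a call, and 2 and 6 gained a call. Most values tallied were not called in the main fit and had no call to lose. Slc41a1 alone had calls that could be lost here, so all the lost calls are its own, and the tally does not show that they were stable. Members called for DOX in WT numbered 2 without TMM scaling, without a filter or with DESeq2 (Slc41a1 and Trpm7), 3 with limma-voom (with Slc41a3) and 0 from the WT libraries alone, and ran from 0 to 2 without 1 library. Of all genes, DESeq2 called 24.4% and limma-voom 37.8% in that comparison, so nothing is read from these counts of so few members. The main fit called 18.6% of all genes for DOX in WT, 0.0136% for DOX in KO, 2.88% for KO under vehicle and 0.42% for KO under DOX. Slc41a3 enters the following counts although its KO values chose it, so nothing is read from its calls. For DOX in KO they were 0 without TMM scaling, in a fit of the KO groups, with the suffix covariate or without both libraries high in atrial transcripts, and ran from 0 to 1 without 1 library. For KO under vehicle they were 1 in a fit of the vehicle groups or without both high-atrial libraries, and ran from 1 to 3. For the interaction they were 1 (Slc41a3) without a filter or with DESeq2 and 2 (with Slc41a1) with limma-voom, and for KO under DOX 0 in every fit. Of all genes, DESeq2 called 2.58% and limma-voom 13.9% for the interaction.

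The values that changed sign passed no threshold in either fit. With the suffix covariate Cnnm2 had log2 values of -0.11 (DOX in WT), -0.062 (DOX in KO), -0.15 (KO under vehicle), -0.10 (KO under DOX) and 0.05 (interaction), and Cnnm3 -0.057 for DOX in WT. Cnnm2 had -0.10 for KO under DOX with limma-voom, and -0.072 for KO under vehicle and 0.10 for the interaction without both high-atrial libraries. Without 1 library, DOX in WT ran from -0.11 to 0.32 for Slc41a2, -0.12 to 0.43 for Cnnm2, -0.073 to 0.126 for Cnnm3 and -0.089 to 0.004 for Cnnm4. DOX in KO ran from -0.032 to 0.263 for Cnnm2. KO under vehicle ran from -0.06 to 0.23 for Cnnm2 and -0.04 to 0.31 for Cnnm4. KO under DOX ran from -0.61 to 0.004 for Slc41a2, -0.08 to 0.002 for Trpm7, -0.23 to 0.33 for Cnnm2 and -0.133 to 0.066 for Cnnm3, and the interaction from -0.31 to 0.25 for Cnnm2. The cause was not tested.

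Counts of all called genes moved by over 1.5 times: from 20 (WT groups alone) to 5575 (limma-voom) for DOX in WT, 0 to 309 (no filter) for DOX in KO, 42 (without KO vehicle mouse veh_3393) to 5186 for KO under vehicle, 5 to 1152 for KO under DOX and 0 to 2048 for the interaction. Slc41a2 is the shallowest member, with 24 to 76 counts. No paired analysis was possible because the groups share no mouse number.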
